A study of Rattus norvegicus with 27 samples.

Results

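Small extracellular vesicles (EVs) shed by dedifferentiated Schwann cells were compared with those shed by differentiated Schwann cells for their microRNA (miRNA) content. The comparison rests on 6 of the 27 libraries of the series, 3 per stage. The cells were purchased primary rat Schwann cells, the glia that ensheath axons of peripheral nerves, used at passages 3 to 5. Differentiated cells had been held for 72 h in DMEM with 1% exosome-depleted serum and 1 mM dibutyryl cyclic AMP (dbcAMP), which enters cells and mimics cyclic AMP. Dedifferentiated cells had the same treatment and then 72 h in a complete medium with 10% exosome-depleted serum, forskolin and 10 ng/mL neuregulin 1-β1 in place of dbcAMP. Serum level, mitogens and stage therefore changed together and cannot be told apart. A further 3 libraries from undifferentiated cells, kept without dbcAMP, entered the statistical fit and are quoted only as levels. The titles call the 3 libraries of a stage biological replicates and say nothing of shared cultures or animals, so p-values measure the spread between these libraries.

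An miRNA is a short RNA cut from a hairpin precursor. The precursor's 5′ and 3′ arms give the 5p and 3p products. The seed, bases 2 to 8 of the mature product, does most of the pairing with target messenger RNAs, and products that share a seed form a family. Cells release a part of their miRNAs inside EVs, and Schwann cell EVs are taken up by axons. Rising cyclic AMP drives cultured Schwann cells towards a myelinating state with the transcription factor Egr2. After nerve injury, or once cyclic AMP is withdrawn, the cells move towards a repair-like state with Jun and the neurotrophin receptor Ngfr.

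The table listed 481 mature entries and 484 hairpin entries, which are described apart because 1 read can belong to both. RefSeq (build GRCr8) gave a sequence for 434 of the mature entries. The mature sequences that the comparison turns on are given 5′ to 3′ with the seed in capitals. The first set holds the entries higher in dedifferentiated EVs, with relatives of the same seed.
miR-203a-3p: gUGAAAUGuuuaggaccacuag
miR-203b-5p: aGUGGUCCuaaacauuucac
miR-146b-5p: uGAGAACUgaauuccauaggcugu
miR-146a-5p: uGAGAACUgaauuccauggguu
miR-30a-5p: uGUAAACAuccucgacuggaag
miR-1b: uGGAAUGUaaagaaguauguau
miR-206-3p: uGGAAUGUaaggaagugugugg
miR-122-5p: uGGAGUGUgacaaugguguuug

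The second set holds the entries that were lower in dedifferentiated EVs when mature entries were fitted alone, and miR-128-3p, whose seed family was lower. No sequence is shown for miR-151-3p.
miR-503-3p: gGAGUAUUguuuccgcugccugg
miR-351-5p: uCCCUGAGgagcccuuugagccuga
miR-450b-3p: aUUGGGGAcgcuucgcauuca
miR-125b-1-3p: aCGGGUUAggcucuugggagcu
miR-125a-3p: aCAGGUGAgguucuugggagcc
miR-128-3p: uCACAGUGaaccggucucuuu

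The cells that shed these EVs differed in some stage markers. In cell mRNA, levels are estimated counts scaled to a common library total and to composition by TMM (CPM). Jun stood at 267, 252 and 196 CPM in the differentiated cells and at 1857, 2177 and 2068 CPM in the dedifferentiated cells, a difference of 3.10 on the log2 scale (SE 0.17; edgeR adjusted p = 3.29e-07). Ngfr rose by 1.71 (SE 0.14; edgeR adjusted p = 6.37e-06), and Egr2 fell by 2.43 (SE 0.47; edgeR adjusted p = 0.00185). The Schwann cell markers Sox10 and S100b were present in all libraries and higher in the dedifferentiated cells. Sox10 rose by 0.49 (SE 0.11; edgeR adjusted p = 0.00403) and S100b by 0.44 (SE 0.11; edgeR adjusted p = 0.00887). Against the usual direction of dedifferentiation, the mRNA of the myelin gene Pmp22 rose by 1.06 on the log2 scale (SE 0.26; edgeR adjusted p = 0.00704). Mbp, a further myelin gene, had overlapping libraries and was not called (0.40, SE 0.36; edgeR adjusted p = 0.394). The background is high, since 46.4% of the 10372 genes tested were called in this cell comparison.

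The EV libraries were shallow. Totals were 148448 to 474965 counts in differentiated and 90555 to 274829 in dedifferentiated libraries, of which 77.5 to 83.5% lay in mature entries. The 10 most abundant mature entries held 62.4 to 71.8% of the mature counts. A level of 3 counts, taken as the floor of detection, corresponded to 7.16 to 25.1 CPM. Log2 levels correlated at 0.874 to 0.931 within the differentiated stage and at 0.867 to 0.927 within the dedifferentiated stage. Between the stages the range was 0.777 to 0.901.

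Few entries were called between the stages in the main fit, which did not use the replicate numbers. Of 361 entries tested in 1 fit on the whole table, 11 (3.05%) were called at an adjusted p under 0.05. Among the 177 mature entries tested, 7 (3.95%) were called, with 6 higher (3.39%) and 1 lower (0.565%) in dedifferentiated EVs. When the mature entries were fitted alone, so that hairpin counts set neither the scale nor the adjustment, 11 of 180 (6.11%) were called, 5 higher (2.78%) and 6 lower (3.33%). The higher share of the calls was thus 85.7% on the one scale and 45.5% on the other, and 6 entries were called in both. The median log2 change of the mature entries moved from 0.13 to -0.12 between the fits, so single changes of about that size have no stable sign. The number of calls also depends on the model. A replicate block gave more calls in both fits, most of them lower with mature entries alone, and DESeq2's Wald test gave more in the whole table. These counts are given with the dependence on processing below.

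Single libraries weighed on the number of calls. Leaving out any 1 of the 6 libraries left 0 to 4 calls in the whole table. There were 0 without differentiated replicate 2, differentiated replicate 3 or dedifferentiated replicate 3, where edgeR gave 53, 54 and 63 entries at an unadjusted p under 0.05. Among mature entries fitted alone, there were 5 to 9 calls without 1 library. On the whole-table scale 29 tested mature entries (16.4%) had all 3 dedifferentiated libraries above all 3 differentiated ones, and 20 (11.3%) had them all below. On the mature-only scale these were 18 (10.2%) and 30 (16.9%). All 12 entries called in either fit were apart on both scales.

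**Figure D1:**
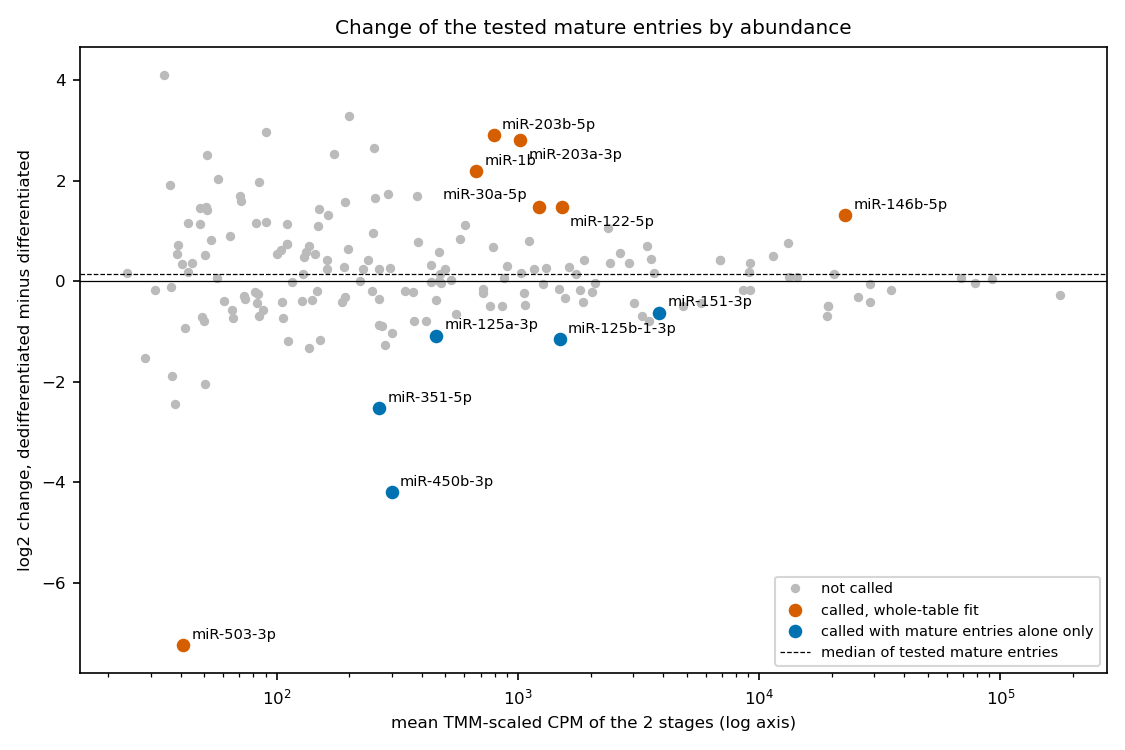
Log2 change of each of the 177 tested mature entries (vertical axis, dedifferentiated minus differentiated, whole-table fit) against the mean level of the 2 stages (horizontal log axis, TMM-scaled CPM). Orange points were called in the whole-table fit and blue points only with mature entries alone. The dashed line is the median, 0.13. miR-146b-5p stands apart at the abundant end, and miR-503-3p, at 0 in every dedifferentiated library, lies lowest.

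The miR-203 locus gave the smallest p. miR-203a-3p is best known from skin, where it promotes differentiation of keratinocytes. Its level was 393, 172 and 200 CPM in the differentiated libraries and 2656, 1380 and 1323 CPM in the dedifferentiated ones. The groups did not overlap, and the lowest dedifferentiated library was above the highest differentiated one. The log2 change was 2.81 (SE 0.44; edgeR adjusted p = 0.0129), and 2.56 (SE 0.45; edgeR adjusted p = 0.0124) with mature entries alone. In undifferentiated EVs the levels were 344.5, 197 and 320.0 CPM, near those of the differentiated stage.

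miR-203b-5p behaved likewise, with 311, 148 and 96.0 CPM against 2230, 872 and 1107 CPM and a difference of 2.91 on the log2 scale (SE 0.53; edgeR adjusted p = 0.0182). It is not a separate measurement. RefSeq places miR-203a-3p at chr6:137020756-137020777 on the plus strand and miR-203b-5p at chr6:137020756-137020775 on the minus strand (GRCr8), an overlap of 20 bases. The counts do not tell strands apart. All 6 pairs of mature entries that are exact reverse complements of each other, such as let-7a-5p and miR-3596a with 33312 counts each, held identical counts. The hairpins mir-203a and mir-203b also rose, each by 2.63, with edgeR adjusted p = 0.0246 for each. The 4 calls at this place are therefore 1 signal.

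miR-146b-5p was the most abundant entry called. This miRNA dampens NF-kB signalling through Traf6 and Irak1. Differentiated EVs held 12129, 13913 and 13185 CPM and dedifferentiated EVs 27954, 33539 and 35870 CPM. The spread within a stage was small, with means of 13075 ± 897 and 32454 ± 4068 CPM (SD, n = 3). The log2 change was 1.31 (SE 0.24; edgeR adjusted p = 0.0182), and 1.04 (SE 0.21; edgeR adjusted p = 0.0124) alone. It was called in 11 of 11 settings other than the removal of a library, and in 2 of the 6 whole-table fits that left out a library. Its seed relative miR-146a-5p stood at 143, 122 and 152 against 159, 65.7 and 329.5 CPM, overlapping, with a difference of 0.41 on the log2 scale (SE 0.69; edgeR adjusted p = 0.776).

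miR-30a-5p belongs to a widely expressed family. It stood at 546, 885 and 496 CPM in differentiated and at 1670, 1735 and 1977 CPM in dedifferentiated EVs. No library overlapped, and the log2 change was 1.47 (SE 0.29; edgeR adjusted p = 0.0234), or 1.21 (SE 0.27; edgeR adjusted p = 0.0203) alone. It was called in 10 of 11 settings other than the removal of a library. Of the 6 whole-table fits that left out a library, it was called in 0. The opposite arm, miR-30a-3p, also had its libraries apart, at 2470, 2853 and 2512 against 3090, 4859 and 4777 CPM, but was not called (0.70, SE 0.24; edgeR adjusted p = 0.143). Of the 7 miR-30 entries tested, 6 had a log2 change above 0 and 4 had libraries apart and higher, with a median of 0.79. Over all 177 tested mature entries, 97 lay above 0, 29 (16.4%) were apart and higher, and the median was 0.13. The seed GUAAACA, which sums miR-30a-5p, miR-30c-5p, miR-30e-5p and miR-384-5p, was not called (0.43, SE 0.20; edgeR adjusted p = 0.158). miR-30b-5p and miR-30d-5p had no sequence and could not enter that sum, so it is incomplete for the miR-30 name. miR-30d-5p, with 2214 counts over all 9 libraries, had its libraries apart and higher on both scales without a call. Summed over all 11 miR-30 entries, the levels were 6460 to 8217 CPM in differentiated and 9204 to 13214 CPM in dedifferentiated EVs.

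The other entries called higher are best known as markers of other tissues. miR-1b, of the muscle miR-1 family, stood at 459, 160 and 104 CPM against 1244, 1148 and 911 CPM, a difference of 2.18 on the log2 scale (SE 0.51; edgeR adjusted p = 0.0393). All dedifferentiated libraries lay above all differentiated ones. miR-1b was called in 6 of 11 settings other than the removal of a library, and in 1 of the 6 whole-table fits that left out a library. The liver miRNA miR-122-5p stood at 1235, 699 and 480 CPM against 2673, 1875 and 2152 CPM, a difference of 1.47 on the log2 scale (SE 0.35; edgeR adjusted p = 0.0397). Its libraries did not overlap, but with mature entries alone its adjusted p was 0.0714 by edgeR and the call was lost. miR-122-5p was called in 4 of 11 settings other than the removal of a library, and in 1 of the 6 whole-table fits that left out a library.

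Several marker lists of other cell types and of serum were higher in dedifferentiated EVs. Pairs of counts here and below are sums over the 3 libraries of the differentiated and then the dedifferentiated stage, not scaled to depth. The differentiated libraries together were deeper, so a pair of equal counts stands for a somewhat higher scaled level in dedifferentiated EVs. The muscle list summed to 232 to 510 CPM in differentiated and 1189 to 1787 CPM in dedifferentiated EVs. Most of this sum was miR-1b, with 170 and 588 counts in the 2 stages. miR-206-3p, the only other one of its 6 entries tested, had 79 and 130 counts with overlapping libraries. miR-1-3p had 3 and 3, and miR-133a-3p, miR-133b-3p and miR-133c each had 5 and 1. The hepatocyte list is miR-122-5p itself. The erythroid and serum list of 3 entries summed to 28.6 to 107 against 154 to 200 CPM, with 21 and 62 counts for miR-486 and 19 and 31 for miR-451-5p, and 1 and 0 for miR-144-5p. The fibroblast and smooth muscle list of 3 entries summed to 296 to 608 against 1166 to 1292 CPM, with 307 and 401 counts for miR-199a-3p and 16 and 20 for miR-199a-5p. miR-143-3p, a smooth muscle miRNA, stood there at 91.8, 107 and 0 against 476, 565 and 283 CPM (log2 change 2.64, SE 0.82; edgeR adjusted p = 0.115).

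Epithelial entries were scarce, with a summed 56.0 to 66.8 against 175 to 342 CPM over 9 entries. In that list miR-205 had 29 and 57 counts, miR-200b-3p 1 and 18, miR-200b-5p 0 and 12, and miR-200c-3p 6 and 17. miR-200a-3p had 7 and 8, miR-141-3p 4 and 6, miR-141-5p 0 and 1, and miR-429 and miR-200a-5p had 0 in both stages. The endothelial marker miR-126a-3p had 17 and 40 counts with overlapping libraries. The 4 myeloid entries summed to 11.9 to 71.4 against 66.8 to 145 CPM and overlapped, and the 3 lymphoid entries overlapped too, at 103 to 265 against 61.8 to 175 CPM. The neuronal list of 6 entries went the other way, 7480 to 7993 against 5813 to 6584 CPM, most of it miR-128-3p, while miR-124-3p had 0 and 7 counts and miR-137-3p had 0. The part of these sources, and of the 1% and 10% serum, in the results was not tested.

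The entries that fell were led by an X-linked cluster on the minus strand, known for products that restrain the cell cycle. Of its 12 mature entries 6 were tested. miR-322-5p and miR-503-5p, with 15 and 86 counts over all 9 libraries, were not among them. miR-503-3p, at chrX:137725859-137725881 (GRCr8), had 16, 22 and 14 counts in the differentiated libraries and 0 in each dedifferentiated library. Against the floor of 3 counts per library, its mean level was at least 4.59-fold lower in dedifferentiated EVs (edgeR adjusted p = 0.0237 in the whole table and 0.0124 alone). Undifferentiated EVs held 177, 60.5 and 78.6 CPM. miR-351-5p, at chrX:137725157-137725181, stood at 520.5, 470 and 360.0 against 184, 13.1 and 51.5 CPM without overlap. Its log2 change was -2.53 (SE 0.68; edgeR adjusted p = 0.0845) in the whole table, and it was called alone at -2.76 (SE 0.67; edgeR adjusted p = 0.0306). Of the 6 whole-table fits that left out a library, miR-503-3p was called in 0 and miR-351-5p in 1. With mature entries alone these were 6 and 4 of 6.

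miR-450b-3p of the same cluster was also called only alone, at -4.46 on the log2 scale (SE 1.21; edgeR adjusted p = 0.0460). Its levels were 56.1, 95.4 and 1560 CPM against 0, 48.2 and 36 CPM. The value rests on differentiated replicate 3. Without that library the change alone was -1.70 (edgeR adjusted p = 0.546). miR-450b-3p was called in 1 of the 6 mature-only fits that left out a library, and not once opposite-strand copies of other entries were removed. The other tested members were not called. miR-450a-5p gave -1.04, miR-450b-5p -0.42 and miR-542-3p 0.33 in the whole table, all with overlapping libraries. Over the 6 tested members 5 lay below 0, with a median of -1.78, or -1.62 with miR-503-3p set to its bound. Summed, the cluster held 969 to 2688 CPM in differentiated and 386 to 582 CPM in dedifferentiated EVs. The highest of these sums is that of differentiated replicate 3, where miR-450b-3p alone held 1560 CPM. Undifferentiated EVs held 1220 to 1679 CPM.

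A pair of 3p arms of the miR-125 genes fell when mature entries were fitted alone. miR-125 is the mammalian counterpart of the worm timing gene lin-4. miR-125b-1-3p stood at 1674, 2452 and 2040 CPM against 484, 1253 and 1035 CPM, with all dedifferentiated libraries lower. Its log2 change was -1.45 alone (SE 0.31; edgeR adjusted p = 0.0133), and -1.15 (SE 0.37; edgeR adjusted p = 0.119) in the whole table. miR-125a-3p stood at 760, 556 and 552 against 292, 259 and 329.5 CPM, again without overlap. It changed by -1.36 alone (SE 0.34; edgeR adjusted p = 0.0332) and by -1.08 (edgeR adjusted p = 0.129) in the whole table. Of the 6 mature-only fits that left out a library, miR-125b-1-3p was called in 3 and miR-125a-3p in 1.

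The 5p arms are the usual guide strands. In the whole table miR-125a-5p gave 0.09 (SE 0.24; edgeR adjusted p = 0.869) and miR-125b-5p 0.43 (SE 0.23; edgeR adjusted p = 0.329), both with overlapping libraries. The difference between arms was not tested, and miR-125b-5p shares all its counts with its reverse complement miR-3588. The last entry called alone, miR-151-3p, stood at 4710, 5531 and 3744 against 2238, 3300 and 3511 CPM. Its libraries came close to each other, and the change was -0.92 alone (SE 0.25; edgeR adjusted p = 0.0460) and -0.63 (edgeR adjusted p = 0.244) in the whole table. miR-151-3p was called in 1 of the 6 mature-only fits that left out a library. Its call was lost once opposite-strand copies of other entries were removed.

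**Figure D2:**
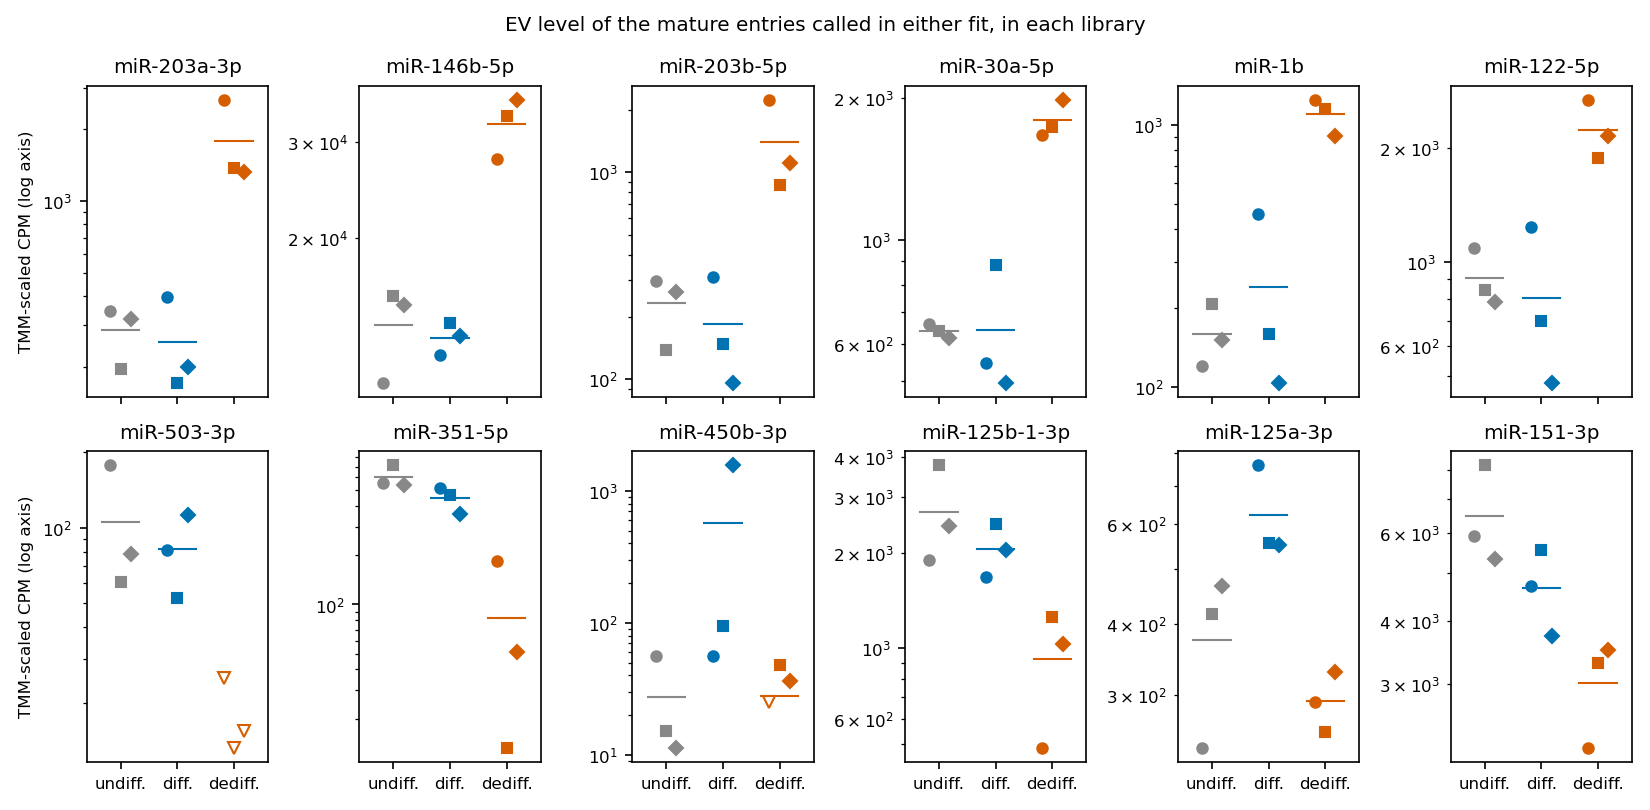
Level of each mature entry called in either fit, 1 panel an entry (vertical log axis, TMM-scaled CPM, scale set per panel). Circles, squares and diamonds are replicates 1, 2 and 3, short lines are stage means, and open triangles mark libraries with 0 counts, drawn at the level of 3 counts. In all 12 panels the dedifferentiated libraries lie wholly above or wholly below the differentiated ones, and for miR-450b-3p 1 differentiated library, at 1560 CPM, lies far above the rest.

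**Figure D3:**
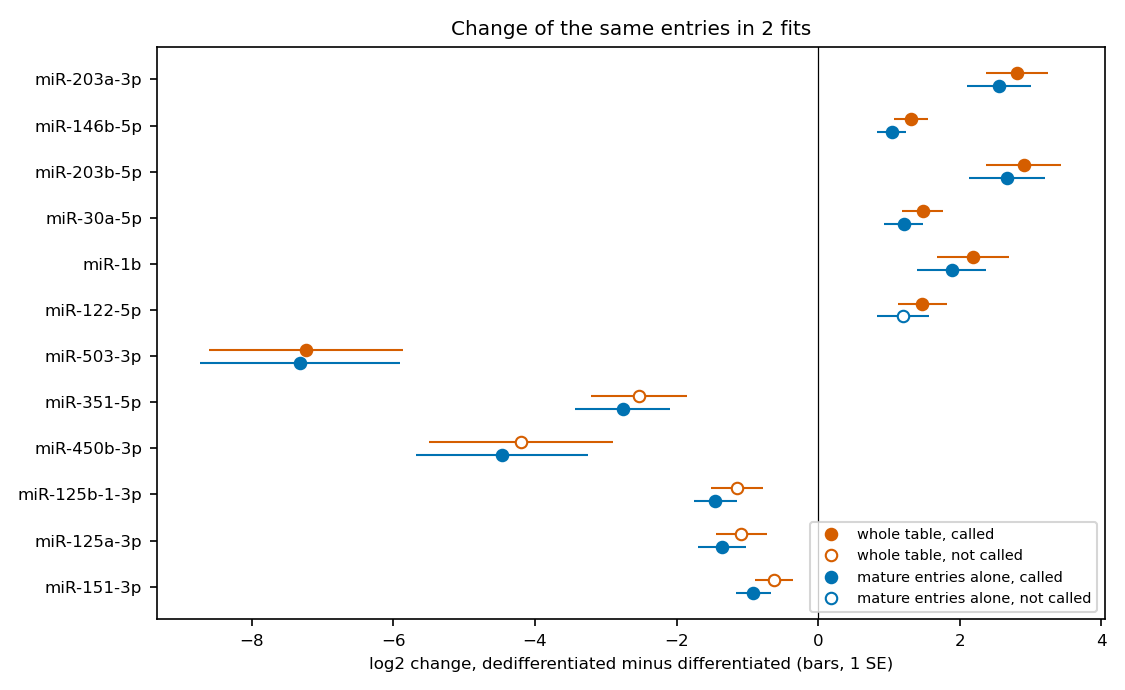
Log2 change (horizontal axis, dedifferentiated minus differentiated, bars 1 SE) of the same 12 entries in the whole-table fit and with mature entries alone. Filled points were called and open points were not. Each change is lower with mature entries alone, miR-122-5p loses its call there, and 5 falling entries gain one. The fitted value of miR-503-3p stands for counts of 0 and is not a measured size.

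Of the 10 most abundant mature entries only miR-146b-5p was called. let-7c-5p, of the let-7 family that restrains growth, led with 117722, 221002 and 243230 CPM against 72378, 234828 and 173833 CPM, which overlap widely. let-7b-5p, let-7i-5p, miR-26a-5p, miR-148b-3p, miR-10a-5p, miR-24-3p and miR-99a-5p had overlapping libraries as well, with log2 changes between -0.31 and 0.14, although on the mature-only scale miR-10a-5p was apart and lower. Among the 9 uncalled ones only miR-21-5p, a miRNA induced after nerve injury, had its libraries apart, at 32106, 32712 and 34042 against 24471, 21248 and 28715 CPM. Its log2 change was -0.41 (SE 0.22; edgeR adjusted p = 0.329).

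Further entries had their libraries apart without a call, also on the mature-only scale except for miR-22-3p. The 5 of smallest p that were higher were miR-532-5p (1.12), miR-184 (1.73), miR-148a-3p (2.53), miR-22-3p (1.06) and miR-23b-3p (1.64), as log2 changes with edgeR adjusted p between 0.0931 and 0.115. For miR-532-5p the levels were 342, 444 and 352 against 860, 903 and 716 CPM, and for miR-22-3p 1827, 1469 and 1296 against 4602, 3015 and 1961 CPM. The 5 lower ones were miR-423-3p (-0.70), miR-17-5p (-1.33), miR-140-5p (-1.16), miR-3559-3p (-2.44) and miR-361-3p (-0.89), with edgeR adjusted p between 0.180 and 0.250. miR-17-5p, of the growth-promoting miR-17-92 cluster, stood at 143, 219 and 224 against 58.5, 105 and 66.9 CPM. miR-140-5p stood at 204, 196 and 224 against 134, 65.7 and 82.4 CPM.

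Families and clusters differed in how uniformly their members behaved, and each is read beside the median of 0.13 over all 177 tested mature entries. Of 13 let-7 and miR-98 entries tested, none was called in either fit, 5 lay above 0 and 8 below, and the median was -0.05. Here edgeR gave 0 calls, and the range of the summed level, 268182 to 523838 against 197598 to 510310 CPM, overlapped. The miR-17-92 cluster and its paralogs had 0 of 11 called, 6 below 0 and a median of -0.32. With mature entries alone 10 of these 11 and 11 of the 13 let-7 entries lay below 0, with medians of -0.58 and -0.32, against -0.12 over all. The miR-99/miR-100/miR-125 list had 0 of 9 called in the whole table, and 2 miR-125 arms alone, with medians of -0.02 and -0.30. miR-23/miR-27/miR-24 had 0 of 8 called, with a median of -0.06, or -0.31 with mature entries alone.

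In the miR-181 list all 4 tested entries lay above 0 in the whole table (median 0.44), but 1 turned below 0 with mature entries alone, and none was called. miR-29a-3p (0.58) and miR-16-5p (0.32) were the only tested members of their lists. The 3 tested entries of miR-34/miR-449 had a median of 0.24, which turned to -0.050 with mature entries alone. The 3 entries of miR-221/miR-222 summed to 1040 to 1271 against 736 to 935 CPM, lower without a call. The cyclic AMP-responsive miR-132 and miR-212 had no tested entry and summed to at most 20.4 and 61.8 CPM in the 2 stages. Of miR-183/miR-96/miR-182, miR-182 had 3 counts in differentiated and 43 in dedifferentiated EVs, a ratio of 19.6 (95% exact counting interval 6.26 to 98.6), which covers counting error only, and dedifferentiated replicate 1 had 0.

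Glial miRNAs went in both directions and none was called. Of the list for myelinating glia, 5 entries were tested, with 2 above 0 and 3 below. miR-338-3p, a miRNA of myelinating glia, stood at 122, 160 and 264 against 350.8, 1078 and 319 CPM, apart and higher (log2 change 1.69, SE 0.57; edgeR adjusted p = 0.128). Its other arm miR-338-5p overlapped (0.56; edgeR adjusted p = 0.270). The list's sum, which is mostly miR-21-5p, was 34147 to 37082 against 25542 to 33332 CPM.

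**Figure D4:**
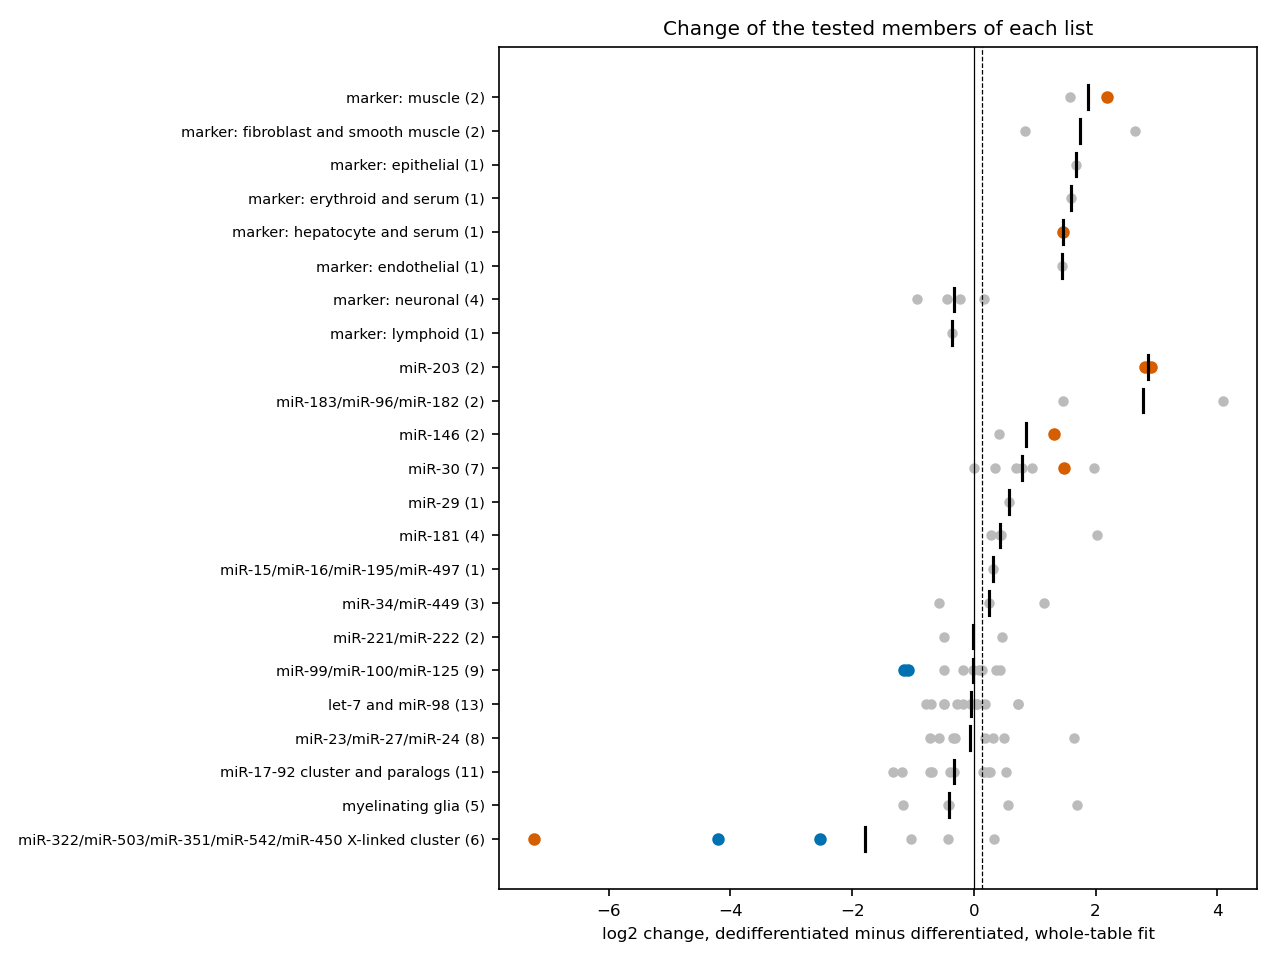
Log2 change (horizontal axis, whole-table fit) of the tested members of each list, 1 row a list with the number tested in brackets. Orange points were called in the whole-table fit and blue points only with mature entries alone, grey points in neither, and black bars are list medians. The dashed line is the median of all tested mature entries, 0.13. The X-linked cluster reaches farthest below 0, with a median of -1.78, and the miR-203 list has the highest median, 2.86.

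Counts were also summed over mature entries of 1 seed, on a mature-only scale. Entries without a sequence entered no sum. Of 124 seed families tested, 10 (8.06%) were called, 5 higher and 5 lower. Among those called, only GAGAACU and GGAAUGU have more than 1 member. Over all 9 libraries GAGAACU held 39497 counts of miR-146b-5p and 346 of miR-146a-5p. GGAAUGU held 894 counts of miR-1b, 253 of miR-206-3p and 8 of miR-1-3p. Both calls therefore mainly test again an entry already called. For the other families the counts of a single entry were tested again among fewer features, so their calls are no further evidence. The higher ones include both seeds of the miR-203 locus, which is 1 signal. The family of miR-203a-3p, with seed UGAAAUG, led. GAGAACU (miR-146a-5p and miR-146b-5p) rose by 1.07 (SE 0.19; edgeR adjusted p = 0.00390), and GGAAUGU (miR-1-3p, miR-1b and miR-206-3p) rose by 1.79 (SE 0.38; edgeR adjusted p = 0.00785). GGAGUGU (miR-122-5p) rose by 1.23 (SE 0.35; edgeR adjusted p = 0.0382), so its call returned here on the same counts of 1 entry. The seed of miR-128-3p, a miRNA enriched in neurons, fell from 9677, 9569 and 8341 to 6066, 4871 and 6408 CPM, a difference of -0.67 on the log2 scale (SE 0.19; edgeR adjusted p = 0.0382), although the entry itself was not called in either fit. That family has no other member, so only the set of features and the adjustment differ. The miR-17 seed AAAGUGC with 5 members was lower in every library and just missed the threshold (-1.07, SE 0.32; edgeR adjusted p = 0.0510).

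Seeds separate relatives that share a gene family name. miR-351-5p carries the seed CCCUGAG of miR-125a-5p and miR-125b-5p. The summed seed was not called (-0.08, SE 0.19; edgeR adjusted p = 0.842), since the miR-125 5p products make up nearly all of it. The let-7 seed GAGGUAG, summed over 9 entries, gave -0.44 (SE 0.35; edgeR adjusted p = 0.525). The 3p arms of miR-125a and miR-125b-1 carry different seeds, CAGGUGA and CGGGUUA, and both seeds were called lower.

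Hairpin entries added 4 calls among 184 tested (2.17%), mir-203a, mir-203b, mir-346 and mir-223. mir-346 stood at 45.9, 64.4 and 96.0 against 1361, 316 and 613 CPM without overlap (log2 change 3.48, SE 0.71; edgeR adjusted p = 0.0237). Its mature entry miR-346 had 0 counts in all 9 libraries while the hairpin had 536. mir-223, a myeloid hairpin, had 0, 0 and 1 counts in differentiated and 13, 24 and 30 in dedifferentiated libraries, a ratio of 91.5 (95% exact counting interval 15.9 to 3666). Its mature arms were sparse. miR-223-3p had 7 and 7 counts and miR-223-5p 6 and 21. Of 168 tested hairpins with a named arm, 84 had more counts than their arms together.

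Sequence features of the called entries are given as a description. The 6 higher entries, of which the miR-203 pair is 1 signal, had a median GC content of 41.3% and the 5 lower ones with a sequence 59.1%, against 45.5% over the 164 tested entries with a sequence. Across those 164 entries the log2 change was nearly unrelated to GC content (Spearman rho -0.04, Pearson r -0.10) or length (rho -0.11, r -0.06). These are descriptions over entries of the same libraries. The mean GC content of the mature counts was 42.3 to 44.1% in differentiated and 43.1 to 44.3% in dedifferentiated libraries. Of the 6 lower entries 5 were 3p arms (83.3%), against 38.4% of all tested entries. Precision rose with abundance, since the median SE was 0.966 under 100 CPM and 0.27 at 1000 CPM and over.

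The tetramer GGAG, searched on the mature strand alone, is a motif linked to EV loading by the RNA-binding protein Hnrnpa2b1. It stood in 4 of the 5 lower entries with a sequence, miR-503-3p, miR-351-5p, miR-125b-1-3p and miR-125a-3p, and can be read in the sequences above. Of these 4, only miR-503-3p was called in each of the 6 mature-only fits that left out a library. GGAG also stood in 1 of the 6 higher entries, miR-122-5p. Of all tested entries with a sequence 11.6% held it, and 9.7% of all 434 matched entries. The 19 tested entries with GGAG had a median log2 change of -0.19 and the 145 without it 0.16 in the whole table, or -0.48 and -0.11 with mature entries alone. In that fit 14 of the 19 and 84 of the 145 lay below 0. The motif was chosen with the called entries known, a match is no binding site, and the difference was not tested.

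Cell mRNA of genes that hold a named or listed miRNA on the same strand was read beside the EV level. Of 10 such genes tested, 5 were called, 1 higher and 4 lower, against 46.4% of all genes, so their share is near the background. Of the 12 mature entries called in either fit, 11 had a sequence and 2 lay in such a gene. These were miR-125a-3p in Spaca6 and miR-125b-1-3p in Mir100hgl, and neither gene was tested. No tested gene below therefore holds a called entry. Clcn5, which holds miR-532-5p, fell from 8.26 ± 0.76 to 2.29 ± 0.56 CPM (SD, n = 3; edgeR adjusted p = 0.000119), while EV miR-532-5p was 1.12 higher on the log2 scale without a call. Wwp2, which holds miR-140-5p, rose by 0.66 (SE 0.10; edgeR adjusted p = 0.000417), while the EV level of miR-140-5p was lower. Aatk, which holds miR-338, fell by 0.43 (SE 0.11; edgeR adjusted p = 0.00860), with EV miR-338-3p higher. Mcm7, which holds miR-25, miR-93 and miR-106b, fell by 0.49 (SE 0.14; edgeR adjusted p = 0.0131), and Rpl29 around let-7g fell by 0.60 (SE 0.10; edgeR adjusted p = 0.000624). Wdr82, also around let-7g, was not called (-0.21, SE 0.09; edgeR adjusted p = 0.0867). The EV log2 changes were 0.17 for miR-25-3p, 0.15 for miR-106b-3p, -0.32 for miR-93-5p and -0.18 for let-7g-5p, none called and all with overlapping libraries. Levels of the same miRNA in cells were not analysed here.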

How the data were processed

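Small RNA libraries were made from about 5 ng of EV RNA, per the labels' protocols. The EV miRNA values are raw counts per entry as deposited by the authors. The cell mRNA values are estimated counts that the authors made with Salmon, per the file name, and were rounded to whole numbers. The submitters' processing notes also name STAR, HISAT2, cutadapt and DESeq2 1.26.0; the miRNA counter, strand setting, build and annotation are not given in the sources used here. Columns were matched to samples by library code and stage.

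The tests used edgeR 4.0.16 under R 4.3.3 (quasi-likelihood, TMM, filterByExpr with a minimum count of 10, all 9 libraries of an assay, no covariate). A call means an adjusted p (Benjamini-Hochberg) below 0.05 over all entries of a fit. Listed CPM values are TMM-scaled from the whole-table fit, and those of seed families from the seed fit. Alternatives were DESeq2 1.42.0, its size factors, library size alone, other filters, the 6 libraries alone, removal of the 10 most abundant entries, a replicate block and each library left out. Fits of mature or hairpin entries alone were planned. Removal of opposite-strand copies, the mature-only scale for library overlap, and block or library removal within the mature-only fit, were chosen after seeing the data. The scripts were tested on simulated counts.

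Named entries are all called entries of either fit, the 10 most abundant, and the 5 higher and 5 lower of smallest p with libraries apart, plus members of family and marker lists. The members, lists and comparison were chosen with earlier results of these data known. Titles number the replicates but do not say whether a shared number means a shared culture. The main fit did not use the numbers. The long non-coding RNA table was not used here. Intervals cover counting error only. The level of 1 further stage marker is not reported here.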

Additional observations from a re-analysis of the deposited data

How the results depend on the processing

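Against 11 calls over all entries, the setting gave 40 calls with the replicate block, 42 with DESeq2's Wald test, 28 without a filter, 7 with DESeq2's size factors, 1 with library size alone, 6 with at least 10 counts in every library, 7 without the 10 most abundant entries, 4 among hairpins fitted alone and 0 to 4 without 1 library. Against 7 mature calls there were 20 with the replicate block, 24 with the Wald test, 16 without a filter, 1 with library size alone, 4 with at least 10 counts, 4 with the 6 libraries alone, 0 to 4 without 1 library and 11 with mature entries alone (45 with the replicate block, 13 higher; 8 without opposite-strand copies; 5 to 9 without 1 library). Against 10 seed families there were 31 with the replicate block, 21 with the Wald test, 16 without a filter and 6 to 9 without 1 library. Same-numbered libraries of the 2 stages correlated in their deviations at 0.0121 to 0.328, with 2 of 3 pairs over 0.1. Of the 6 libraries 5 were closest to their own number, and library codes run in sequence within a number. The titles name no shared culture, so whether the numbers mark pairs is not settled. The main fit did not use them, and the block raised the number of calls in each comparison above. Of the 35 entries recomputed under each setting, the sign changed in these 5, all abundant and uncalled. let-7b-5p, 0.034 as reported, gave -0.074 with DESeq2's size factors and with its Wald test (-0.0737 in both), -0.036 without a filter, -0.0090 with at least 10 counts in every library, and -0.24 to 0.13 without 1 library. With mature entries alone it gave -0.26, -0.22 without copies, -0.27 with the replicate block, and without 1 library -0.38, -0.11, -0.27, 0.10, -0.35 and -0.16. let-7i-5p, 0.056, gave -0.064 with size factors and with the Wald test, and -0.29 to 0.23 without 1 library. With mature entries alone it gave -0.24, -0.21 without copies, -0.27 with the replicate block, and without 1 library -0.44, -0.21, -0.048, 0.19, -0.42 and -0.16. miR-99a-5p, 0.14, gave -0.089 to 0.25 without 1 library. With mature entries alone it gave -0.11, -0.086 without copies, -0.13 with the replicate block, and without 1 library -0.087, -0.12, -0.11, -0.10, 0.12 and -0.073. miR-26a-5p, -0.027, gave 0.020 with library size alone, -0.33 to 0.064 without 1 library, and 0.021 with mature entries alone without dedifferentiated replicate 1. miR-148b-3p, -0.058, gave -0.43 to 0.082 without 1 library and 0.025 in that same mature-only setting. The causes were not tested. The smallest library held 90555 counts, and the part of depth in the calls was not tested.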

Other observations

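The cells' own mRNA for miRNA processing and EV genes was read as a further description, with lists chosen after the data were seen. Among 7 tested genes of miRNA processing, 3 were lower and 1 higher in dedifferentiated cells, with a median log2 change of -0.40 against -0.01 over all genes, and 46.4% of all 10372 genes were called. Ago2, the slicing Argonaute, fell by 0.51 (SE 0.15; edgeR adjusted p = 0.0170). Xpo5, the exporter of precursor hairpins, fell by 0.48 (SE 0.07; edgeR adjusted p = 0.000406). Tarbp2, a partner of Dicer, fell by 0.40 (SE 0.12; edgeR adjusted p = 0.0187), while Ago1 rose by 0.36 (SE 0.08; edgeR adjusted p = 0.00430). Drosha, Dgcr8 and Ago3 were not called. The list also held Dicer1, but the cell mRNA values had no entry of that name, so it could not be read.

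Of 9 tested genes of EV formation and loading, 4 were lower and 2 higher, with a median log2 change of -0.13 against -0.01 over all genes. Among all genes tested, 46.4% were called. The mRNAs of the RNA-binding proteins in this list that are linked to miRNA loading into EVs were all lower. Their part in the EV levels was not tested. Hnrnpa2b1 fell by 0.41 (SE 0.08; edgeR adjusted p = 0.00143), Syncrip by 0.39 (SE 0.09; edgeR adjusted p = 0.00679) and Ybx1 by 0.67 (SE 0.11; edgeR adjusted p = 0.000668). The EV tetraspanins diverged. Cd9 rose by 1.53 (SE 0.11; edgeR adjusted p = 2.53e-06), Cd81 fell by 0.67 (SE 0.09; edgeR adjusted p = 0.000220), and Cd63 gave -0.13 (SE 0.10; edgeR adjusted p = 0.324). Tsg101, of the vesicle-budding machinery, rose by 0.39 (SE 0.10; edgeR adjusted p = 0.00710).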
